A study of Mus musculus with 2 samples.

Results

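The genes described here encode glycosyltransferases and sulfotransferases that build the glycans of the cell surface. They were chosen by symbol alone, from 11 prefixes and the numbered Fut genes, and comprise 100 of the 22609 genes listed: the families Galnt, Gcnt, Mgat, B3galt, B4galt, B3gnt, Fut, St3gal, St6gal (which takes in St6galnac), St8sia, Chst and Hs6st. Their RNA was counted in CD8+ regulatory T cells, a type that restrains other immune cells, FACS-purified from the spleens of naive animals 3 months old. Wild-type (WT) mice supplied 1 library. The other was from mice of genotype Tgfbr2-/-Eomes-/-, called DKO here, which lack a TGF-beta receptor subunit and the T-box transcription factor Eomes. The labels used here do not give the sort markers, the number of mice pooled, or the allele or promoter through which either gene was deleted. Neither genotype has a second library, so differences have no replicate check and no p-value is given. Values in brackets after a fold are exact 95% intervals of counting error, which compare the 2 libraries and not the genotypes. In such bulk libraries, fewer cells of a type and less RNA per cell cannot be told apart.

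Surface glycans are assembled step by step in the Golgi, where each enzyme makes the acceptor for the next or competes with another for it. On T cells, mucin-type O-glycans begin with GalNAc on serine or threonine, receive galactose to form core 1, and are then either capped with sialic acid or branched to core 2. Core 2 branches that carry sialic acid and fucose form sialyl Lewis x, the structure through which PSGL-1 binds P- and E-selectin. Effector CD8+ T cells are known to carry more core 2 O-glycans than naive ones, and glycan branching and sialylation also set how galectins and other lectins bind.

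Depth was 22307065 gene counts for WT and 19661212 for DKO, and levels are counts scaled by TMM to a common library size and given as CPM. Pairs of values give WT first and DKO second. Eomes (469 and 180 CPM) and Tgfbr2 (357 and 244 CPM) were both lower in the DKO library, and their counts cover whole genes, not the deleted parts. The 6 T cell receptor and CD8 genes summed to 4968 and 4692 CPM, with Cd8a at 998 and 978 CPM. Genes listed as markers of other cell types had more RNA in DKO: of 51 measured on 8 lists, 31 were at least 2-fold higher (60.8%) and 1 lower (1.96%). Over all measured genes these shares were 11.7% and 3.67%. The neutrophil list had 6 of 6 genes above a ratio of 1 and summed to 471 and 2181 CPM. The dendritic list (7 of 7) summed to 467 and 1448 CPM, the myeloid list (7 of 7) to 840 and 1695 CPM, the NK list (8 of 9) to 732 and 1745 CPM, and the CD4 and FOXP3 T cell list (7 of 7) to 99.3 and 238 CPM. Much of the NK and dendritic differences came from 1 gene each, Gzma (160 and 785 CPM) and H2-Aa (398 and 1278 CPM). Klre1, on the NK list, was 1.61-fold lower. B cell (5 of 6 above 1), plasma (4 of 5) and erythroid and platelet lists (4 of 4) summed to 51.4 and 66.9, 304 and 548, and 14.5 and 30.2 CPM. Hbb-b1 and Hba-a1 were at 0 in both libraries, and Ebf1 at 0 in DKO. Proliferation genes, 8 of 8 above 1, summed to 92.6 and 328 CPM. Whether RNA of the listed genes came from other cells or from the sorted cells themselves was not tested, and neither was the part these differences play in the results below.

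**Figure D1:**
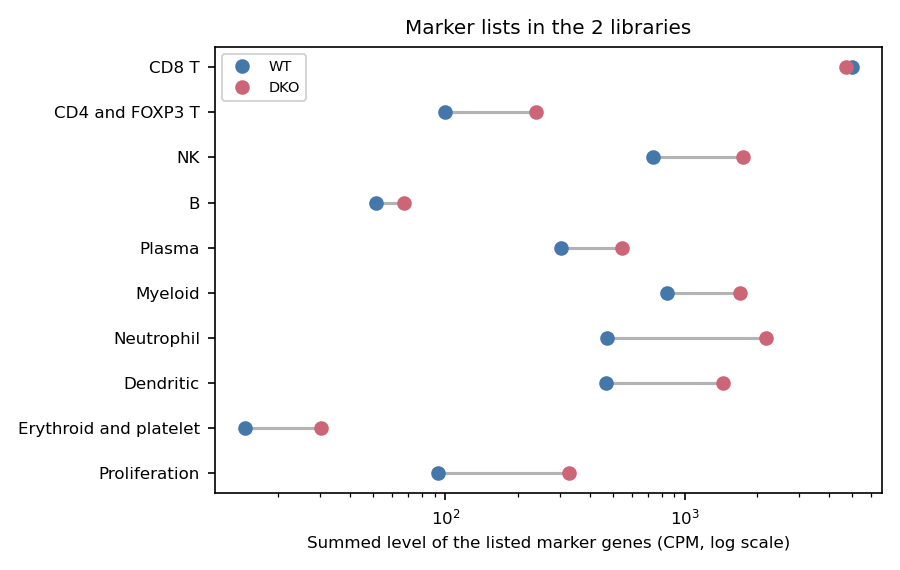
Summed CPM (log axis) of each marker list in the WT library (blue) and the DKO library (red), 1 library each, with no error bars. The CD8 T list lies at 4968 and 4692 CPM, whereas the neutrophil list lies at 471 and 2181 CPM.

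Glycan enzyme genes of low abundance made up most of the differences. The higher ones were Gcnt1 and Gcnt2 (branching), Fut4 (fucose), Chst2 and Chst7 (sulfate on GlcNAc), and St6galnac2, St6galnac6 and St8sia6 (sialic acid), and the lower one was the chondroitin sulfotransferase gene Chst11. Of the 100 genes, 29 had no counts in either library, 7 had counts below 1 CPM in both, and 64 were measured, meaning at least 1 CPM in either library. A difference was counted from 2-fold upward, provided that the interval did not contain 1. By this limit 8 of 64 were higher in the DKO library (12.5%), where 11.7% of all 11735 measured genes were, and 1 was lower (1.56%), where 3.67% of all genes were. At 2-fold the shares are near or below those of all genes, so the number of called enzymes is not a result about this set. At 1.5-fold, 15 of 64 were higher, a larger share than the 17.7% of all genes (2074 of 11735). At that limit 3 of 64 were lower, a smaller share than the 8.45% of all genes (992 of 11735). These shares were not tested. The log2 ratios of the 64 genes had a median of 0.13, against 0.00 over all measured genes. All 100 genes together took 0.390% of the gene counts in each library, with summed levels of 3963 and 3831 CPM.

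Differences were spread unevenly over abundance, where a gene is placed by its CPM in whichever library had more. Among the 13 enzymes at 100 CPM or more, 0 were higher (2.17% of all genes there) and 1, Chst11, was lower (0.761% of all genes there), and their median log2 ratio was -0.09, as it was for all genes of that abundance. From 20 to 100 CPM, 1 of 21 was higher (Gcnt2), or 4.76% against 4.71% of all genes there, with a median of -0.10 against -0.02. Between 5 and 20 CPM, 4 of 17 were higher (23.5% against 18.8% of all genes). There 15 of the 17 log2 ratios lay above 0, where 1457 of 2398 of all genes did, with a median of 0.41 against 0.18. Between 1 and 5 CPM, 3 of 13 were higher (23.1% against 35.4%), with a median of 0.72 against 0.46. In the lower direction 0 of 13 enzymes were called at 1 to 5 CPM (15.8% of all genes there), 0 of 17 at 5 to 20 CPM (3.96%) and 0 of 21 at 20 to 100 CPM (0.690%). Thus 7 of the 8 higher genes lay below 20 CPM in both libraries, as the plot of levels in the 2 libraries shows.

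**Figure D2:**
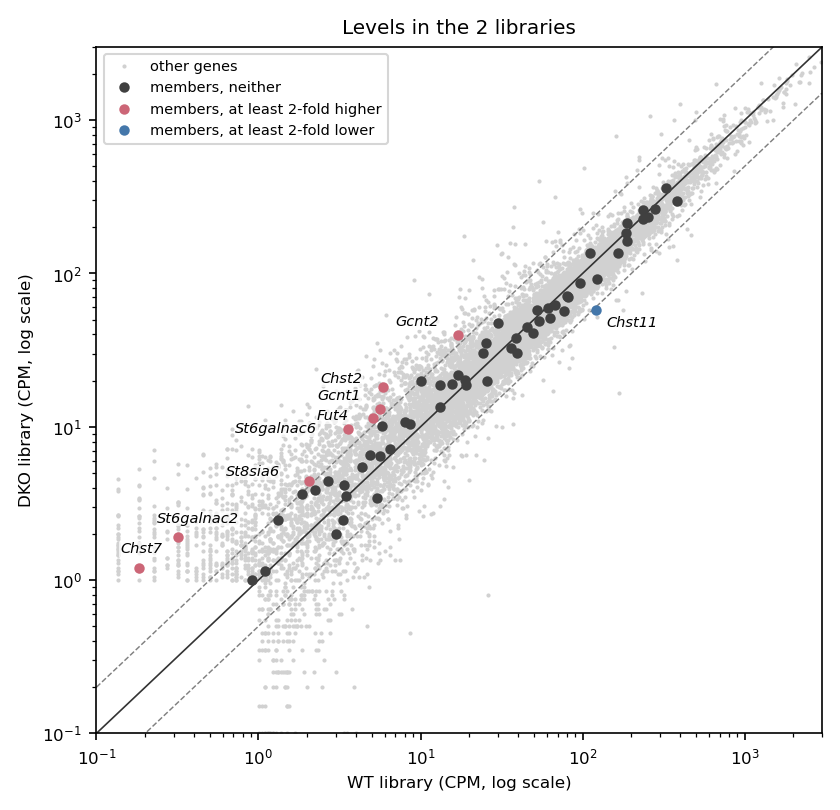
CPM in the WT library (x) and the DKO library (y), both on log axes, for every measured gene with counts in both (grey; the most abundant lie beyond the axes) and for the measured glycan enzyme genes (large points). The solid line marks equal levels and the dashed lines 2-fold; the 8 higher genes (red) lie low on the scale, and Chst11 (blue), at 121 and 57.5 CPM, lies high.

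The promoters of Chst11, Chst2, Fut4 and Gcnt1, 4 of the 6 genes called at 5 CPM or more, are shown because the genotype removes a T-box factor and a receptor that acts through SMAD proteins, whose letters were searched for in them. RefSeq windows (GRCm38.p6, 250 bases before to 50 after a transcript start) were matched by symbol for 76 of the 100 genes, 104 windows in all. The letters searched, on both strands, were TCACACC and AGGTGTGA for T-box factors (the second holds the reverse complement of the first) and GTCTAGAC and CAGACA for SMAD proteins. Capitals mark CAGACA or its reverse complement TGTCTG, and all sequences are on the gene's own strand. The 3 windows of Gcnt2 and the 1 of St6galnac6, which hold none of the letters, are not printed.
Chst11, chr10:82985247-82985546, plus strand: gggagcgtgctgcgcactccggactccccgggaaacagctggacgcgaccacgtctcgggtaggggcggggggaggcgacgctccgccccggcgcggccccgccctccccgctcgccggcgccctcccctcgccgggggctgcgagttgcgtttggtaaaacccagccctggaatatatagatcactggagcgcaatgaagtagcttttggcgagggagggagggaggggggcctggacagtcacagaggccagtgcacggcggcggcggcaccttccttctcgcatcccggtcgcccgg
Chst2, chr9:95407221-95407520, minus strand: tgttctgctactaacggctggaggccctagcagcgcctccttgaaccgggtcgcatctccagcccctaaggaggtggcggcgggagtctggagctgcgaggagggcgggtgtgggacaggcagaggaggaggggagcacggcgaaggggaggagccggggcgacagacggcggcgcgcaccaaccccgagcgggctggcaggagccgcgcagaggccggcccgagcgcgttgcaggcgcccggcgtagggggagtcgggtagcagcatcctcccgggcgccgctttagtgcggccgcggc
Fut4, chr9:14752073-14752372, minus strand: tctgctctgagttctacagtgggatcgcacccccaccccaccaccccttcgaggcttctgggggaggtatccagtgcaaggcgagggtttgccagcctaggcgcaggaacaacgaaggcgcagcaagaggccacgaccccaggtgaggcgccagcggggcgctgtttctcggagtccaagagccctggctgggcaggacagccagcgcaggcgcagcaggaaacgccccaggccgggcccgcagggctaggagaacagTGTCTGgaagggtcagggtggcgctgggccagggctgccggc
Gcnt1, chr19:17372795-17373094, minus strand: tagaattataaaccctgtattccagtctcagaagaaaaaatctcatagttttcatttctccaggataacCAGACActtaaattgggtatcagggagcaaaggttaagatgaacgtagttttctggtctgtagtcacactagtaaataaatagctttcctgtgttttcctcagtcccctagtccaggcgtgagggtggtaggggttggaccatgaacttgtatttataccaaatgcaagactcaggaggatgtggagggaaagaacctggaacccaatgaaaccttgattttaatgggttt
Gcnt1, chr19:17356618-17356917, minus strand: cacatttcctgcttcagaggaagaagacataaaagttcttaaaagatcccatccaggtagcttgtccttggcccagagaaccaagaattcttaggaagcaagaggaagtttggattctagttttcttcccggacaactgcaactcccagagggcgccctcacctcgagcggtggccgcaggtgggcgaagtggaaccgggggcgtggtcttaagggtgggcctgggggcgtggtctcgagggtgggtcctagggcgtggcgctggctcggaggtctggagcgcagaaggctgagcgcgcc
Gcnt1, chr19:17339456-17339755, minus strand: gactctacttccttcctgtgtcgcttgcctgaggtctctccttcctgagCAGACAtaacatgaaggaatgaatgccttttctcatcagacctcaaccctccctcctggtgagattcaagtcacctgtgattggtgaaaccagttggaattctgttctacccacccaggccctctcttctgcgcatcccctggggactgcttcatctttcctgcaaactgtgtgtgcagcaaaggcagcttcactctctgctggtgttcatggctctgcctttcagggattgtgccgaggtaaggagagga
Neither T-box string nor GTCTAGAC was found in any of the 12 windows of the called genes. CAGACA was found in 3 of them, 9 bases into the Fut4 transcript and 201 and 181 bases before a Gcnt1 start. The remaining Gcnt1 window, with 16 CpG dinucleotides against 2 and 3 in those with a match, holds none. Over all 104 windows of the enzymes, TCACACC was in 1 (0.962%), AGGTGTGA and GTCTAGAC were in 0, and CAGACA was in 19 (18.3%). The shares over all 32851 promoter windows were 3.98%, 1.28%, 0.213% and 21%. A match is a description of letters, and the counts used here hold no binding data.

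Galnt genes encode transferases that put the first GalNAc on serine or threonine. Of 18 listed, 11 were measured, 0 were 2-fold higher or lower, and together they summed to 1340 and 1183 CPM. At the abundance of most of them few genes were called: 2.17% of all genes at 100 CPM or more and 4.71% at 20 to 100 CPM were higher. Divided by exon length, 4 of them stood at similar levels in WT: Galnt2 (67.7 CPM per kilobase, with 93.7% of its exon length overlapped by genes not listed in the files), Galnt6 (65.1), Galnt10 (64.1) and Galnt1 (55.1), together with 63.6, 60.1, 49.8 and 53.0 in DKO. Galnt10 stood at 383 against 297 CPM, 1.29-fold lower (1.25 to 1.33). Galnt7, which extends sites already glycosylated, stood at 76.8 against 56.8 CPM, 1.35-fold lower (1.25 to 1.46). Galnt1 was at 237 and 228 CPM, and its ratio changed sign when T cell receptor and CD8 genes set the scale. Galnt3 was at 3.46 and 3.55 CPM. The largest difference by ratio was in Galnt9, at 66 and 40 counts, which was 1.5-fold lower (an interval up to 2.29 that just leaves out 1). Core 1 synthesis, the next step, is done by C1galt1 with its chaperone C1galt1c1 (Cosmc), which are outside the chosen families. C1galt1 had 57.0 and 65.0 CPM, C1galt1c1 23.4 and 25.8 CPM, and both were under 1.15-fold apart.

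At the branch point after core 1, Gcnt1 was over 2-fold higher in the DKO library, and the genes for core 1 sialylation differed by less and in both directions, St3gal1 lower and St3gal2 higher (its values are given below). Gcnt1 encodes the enzyme that adds the core 2 branch, and St3gal1 the one that caps core 1 with sialic acid and is needed for the survival of resting CD8+ T cells in mice. Gcnt1 gave 123 counts in WT against 263 in DKO (5.61 against 13.2 CPM), a level 2.35-fold higher (1.89 to 2.93). St3gal1 stood at 166 against 137 CPM, 1.21-fold lower (1.15 to 1.27). For each St3gal1 count there were 0.0339 Gcnt1 counts in WT (0.0281 to 0.0405) and 0.0963 in DKO (0.0846 to 0.109), a ratio that does not depend on how the libraries were scaled. This pair, like the other gene pairs set against each other below, was chosen after the values were seen. Gcnt2, which makes I branches on poly-LacNAc chains, gave 374 counts in WT against 797 in DKO (17.0 against 39.9 CPM), a level 2.34-fold higher (2.07 to 2.65). Gcnt1 and Gcnt2 were thus higher by like amounts, and Gcnt2 kept about 3 counts per Gcnt1 count in both libraries (3.04 and 3.03). Gcnt4 had 1 and 0 counts, and Gcnt3 and Gcnt7 none. Beside these values, the neutrophil and NK lists were 4.63-fold and 2.38-fold higher in sum, and their part in them was not tested.

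**Figure D3:**
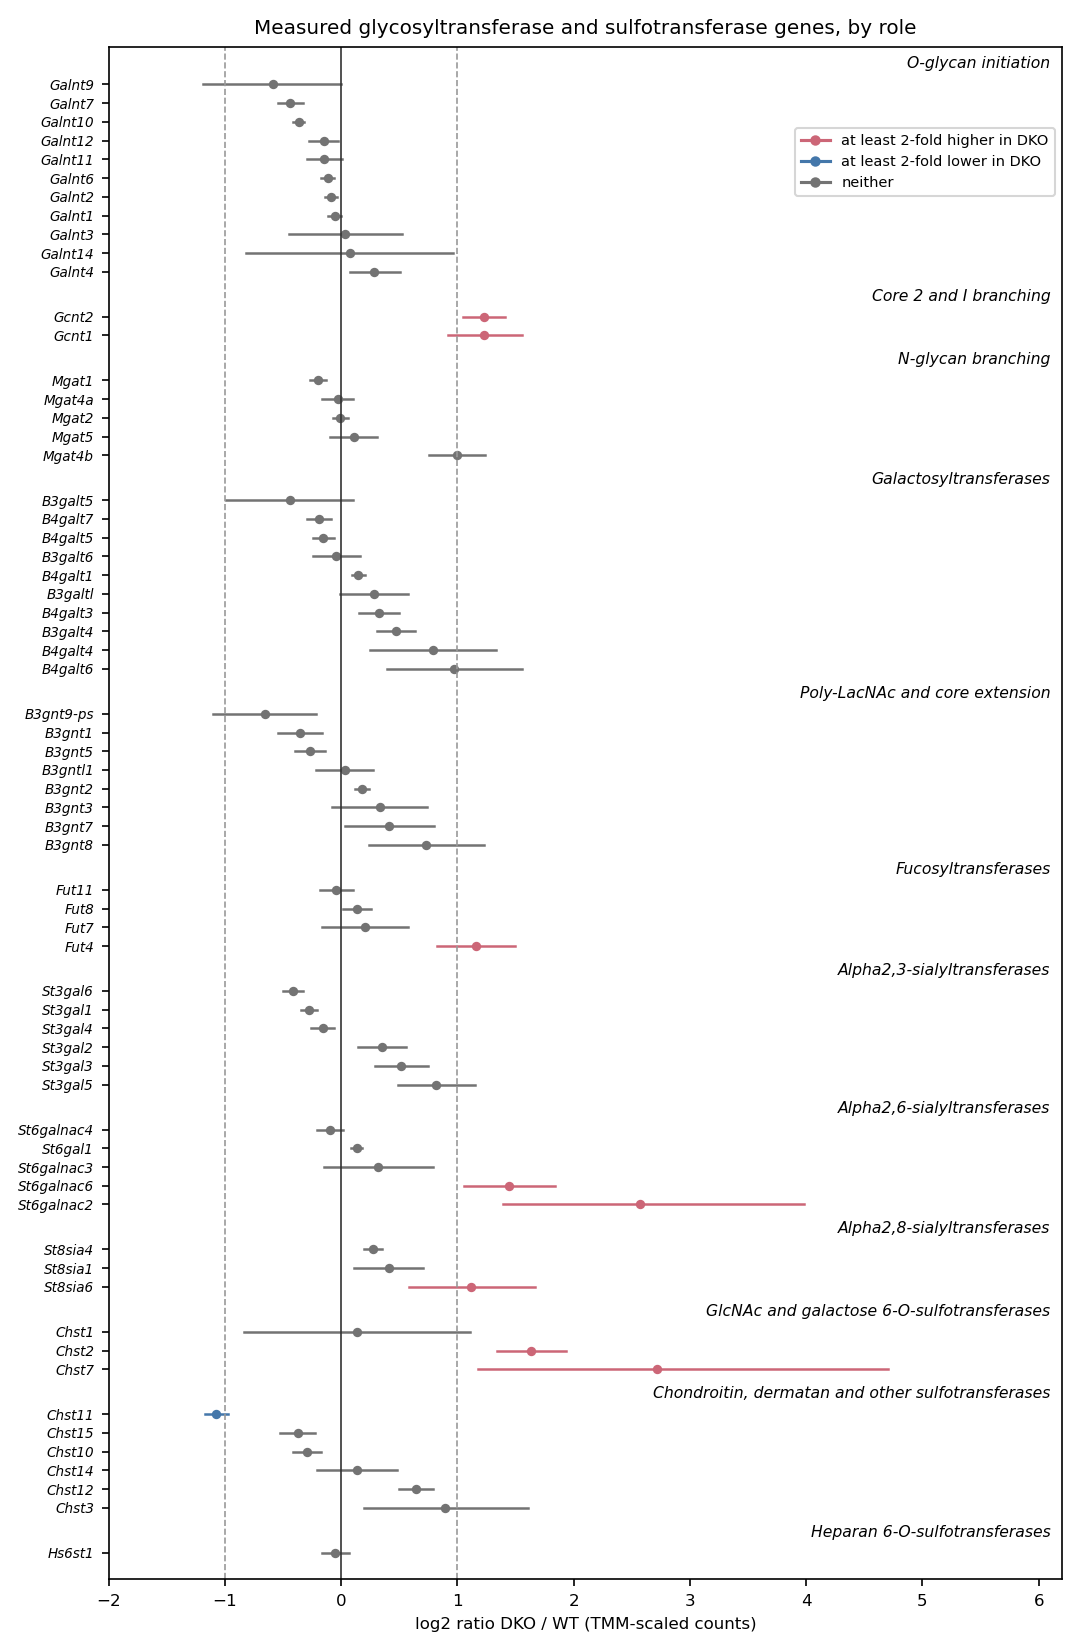
Log2 ratio of DKO to WT for the 64 measured genes, grouped by role and ordered by ratio within a role; bars are exact 95% intervals of counting error and dashed lines mark 2-fold. Both Gcnt genes lie right of the 2-fold line, most Galnt genes lie just left of 0, and Chst11 lies left of the 2-fold line.

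Genes for selectin ligands showed 3 higher members among 10 measured of 11 listed (30%), with 0 lower. The shares of all measured genes were 11.7% higher and 3.67% lower, and 18.8% of all genes were higher at 5 to 20 CPM, where the 3 genes lie. The list was chosen with earlier results of these data known and also holds genes of other abundances, so its 30% is a description only. They were Gcnt1, Fut4 and Chst2, and the list's median log2 ratio was 0.18 against 0.00 for all measured genes. Fut4 and Fut7 encode the α1,3-fucosyltransferases that complete sialyl Lewis x, with Fut7 the main one in T cells. Fut4 gave 112 counts in WT against 228 in DKO (5.11 against 11.4 CPM), a level 2.23-fold higher (1.77 to 2.83). Fut7 gave 123 against 129 counts (5.61 against 6.45 CPM) and a ratio of 1.15 whose interval ran from 0.892 to 1.49. Per kilobase, Fut4 was below Fut7 in WT (1.25 and 2.45 CPM) and at its level in DKO (2.80 and 2.82 CPM). The sialyltransferase genes of this structure lay on the other side of 1. St3gal6 stood at 123 against 92.1 CPM, 1.33-fold lower (1.26 to 1.42), though 36.3% of its exon length is overlapped on the opposite strand by Dcbld2 (4 and 12 counts). St3gal4 stood at 79.5 against 71.2 CPM, 1.12-fold lower (1.04 to 1.2). B4galt1, which makes most LacNAc, stood at 236 against 261 CPM, 1.11-fold higher (1.07 to 1.15). B3gnt3, which extends core 1, had 96 and 110 counts. Of the protein carriers, Selplg (PSGL-1) had 1815 and 1803 CPM, and Spn (CD43) had 1010 and 1197 CPM, 1.19-fold higher (1.16 to 1.21). The neutrophil, NK and dendritic marker sums were 2.38-fold to 4.63-fold higher in the DKO library, the CD4 and FOXP3 T cell sum 2.39-fold and the proliferation sum 3.54-fold. Their part in the values of Gcnt1, Fut4 and Chst2 was not tested.

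**Figure D4:**
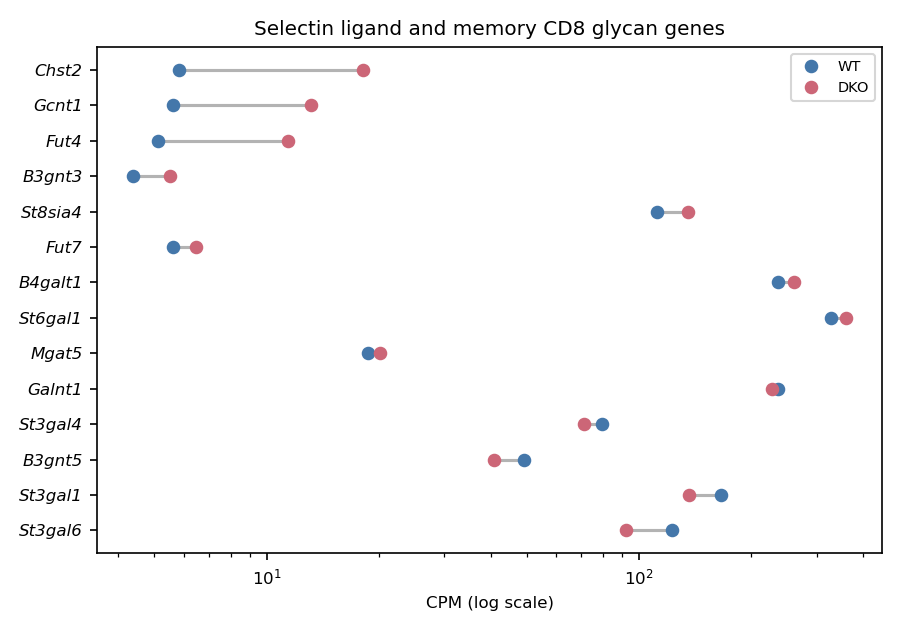
CPM (log axis) of the 14 measured genes of the selectin ligand and memory CD8 glycan lists in the WT (blue) and DKO (red) libraries, ordered by ratio, 1 library each. Chst2, Gcnt1 and Fut4 show the wide gaps, all from below 6 CPM in WT, and St3gal6 is lowest in the order.

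Of the 6 genes on the memory CD8 glycan list, 1 was higher (Gcnt1), 0 lower and 5 neither, a share (16.7%) near the 11.7% of all measured genes. The summed levels were 753 and 757 CPM. St6gal1, which caps N-glycans with α2,6-linked sialic acid, was among the most abundant of all the enzymes per kilobase, ranking 2 in WT and 1 in DKO. It gave 7199 counts in WT against 7198 in DKO (328 against 360 CPM), a level 1.10-fold higher (1.06 to 1.13). St8sia4, a polysialyltransferase, stood at 112 against 135 CPM, 1.21-fold higher (1.14 to 1.28). Mgat5, whose β1,6 branch on N-glycans is bound by galectins, had 18.7 and 20.2 CPM, 1.08-fold higher (0.938 to 1.24).

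Abundant sialyltransferase genes lay on both sides of 1, with St6gal1 and St8sia4 higher, as given above. Among the α2,3 genes, the 3 above 70 CPM (St3gal1, St3gal4 and St3gal6) were each lower in the DKO library, and the 3 below 25 CPM were each higher. These limits were taken from the values themselves, and all genes leaned the same way by abundance. Log2 ratios were below 0 for 1711 of 2627 genes at 100 CPM or more and for 2571 of 4928 at 20 to 100 CPM. At 5 to 20 CPM they were above 0 for 1457 of 2398 genes. St3gal2 stood at 17.0 against 21.6 CPM, 1.27-fold higher (1.11 to 1.47), and St3gal3 stood at 13.2 against 18.9 CPM, 1.43-fold higher (1.22 to 1.67). St3gal5, which makes the ganglioside GM3, stood at 126 against 202 counts, 1.76-fold higher (1.40 to 2.22). None of the 6 passed 2-fold, beside 11.7% higher and 3.67% lower over all measured genes, so this count says little of so few genes. Among genes of α2,6 linkage, St6galnac6, an enzyme that acts on gangliosides, gave 78 counts in WT against 193 in DKO (3.56 against 9.65 CPM), a level 2.71-fold higher (2.08 to 3.58). St6galnac2, which acts on O-glycans, stood at 7 against 38 counts, 5.96-fold higher (2.63 to 15.8). St6galnac4, which also acts on O-glycans, had 67.1 and 62.7 CPM, 1.07-fold lower (0.992 to 1.15). Of the α2,8 genes, St8sia6 stood at 45 against 89 counts, 2.17-fold higher (1.5 to 3.18), and St8sia1, the GD3 synthase gene, stood at 177 against 214 counts, 1.33-fold higher (1.08 to 1.63). All called sialyltransferase genes were below 10 CPM in both libraries, beside marker sums of other cell types that were 1.30-fold (B cell) to 4.63-fold (neutrophil) higher, whose part was not tested.

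N-glycan branching genes were led by the same pair in both libraries. The genes of the β1,4 branch changed places only when levels were divided by exon length, and Mgat4a had more counts than Mgat4b in both libraries. Mgat2 and Mgat1, which start the second and the first antenna of complex N-glycans, were at 71.2 and 56.1 CPM per kilobase in WT and 70.7 and 48.8 in DKO. Mgat1 stood at 188 against 164 CPM, 1.15-fold lower (1.10 to 1.2), and Mgat2 had 186 and 185 CPM. The genes of the β1,4 branch differed from each other: Mgat4a had 994 and 888 counts and a level 1.02-fold lower with an interval that held 1 (0.931 to 1.12; the sign changed under 2 other scalings), whereas Mgat4b stood at 220 against 399 counts, 1.99-fold higher (1.68 to 2.36), just under the limit. Per kilobase, Mgat4a was above Mgat4b in WT (6.15 and 4.13 CPM) and below it in DKO (6.03 and 8.22 CPM). Mgat3, which adds the bisecting GlcNAc, had 0 and 14 counts and lay below 1 CPM. Its DKO level was 5.12-fold a floor of 3 counts in WT (0.137 CPM), and its ratio had a lower interval limit of 3.64.

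Galactosyltransferase and chain-extension genes, 10 and 8 measured, had 0 called, beside 11.7% higher and 3.67% lower over all genes, so these counts say little of so few genes. Of 10 measured galactosyltransferase genes, B4galt6, a lactosylceramide synthase gene, was closest to the limit, with 41 and 73 counts and a 1.95-fold higher level (1.31 to 2.94). B4galt5, the other lactosylceramide synthase gene, stood at 97.0 against 87.2 CPM, 1.11-fold lower (1.04 to 1.19). B3galt4, which makes ganglioside GM1, stood at 25.3 against 35.0 CPM, 1.39-fold higher (1.24 to 1.55). Of 8 measured B3gnt genes, B3gnt2, the main poly-LacNAc enzyme gene, was 1.13-fold higher (1.09 to 1.18). Of its exon length, 73.6% is overlapped by genes not listed in the data. It supplied 73.4% of the summed level per kilobase in WT and 75.9% in DKO. This sum covers the B3gnt genes with an exon length and leaves out B3gnt1. B3gnt9-ps stood at 119 against 69 counts, 1.57-fold lower (1.16 to 2.15), and its exons overlap D230025D16Rik, which has its own row. The symbol B3gnt1 is a synonym of 2 current genes, so its values (561 and 400 counts) are not tied to an enzyme here. Fut8, which adds the core fucose of N-glycans, stood at 52.6 against 57.8 CPM, 1.10-fold higher (1.01 to 1.19).

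Sulfotransferase genes held the largest differences in both directions. Chst11, a chondroitin 4-O-sulfotransferase gene, gave 2655 counts in WT against 1149 in DKO (121 against 57.5 CPM), a level 2.11-fold lower (1.96 to 2.26). Chst12, which encodes an enzyme of the same reaction, gave 664 counts in WT against 947 in DKO (30.3 against 47.4 CPM), a level 1.56-fold higher (1.42 to 1.73). Counts of Chst11 per Chst12 count were 4.0 in WT (3.67 to 4.36) and 1.21 in DKO (1.11 to 1.32). Per kilobase the order was reversed, with Chst11 at 21.9 and Chst12 at 13.0 CPM in WT, and 10.4 and 20.3 CPM in DKO. Chst13, the remaining gene of this reaction, had 0 and 15 counts and lay below 1 CPM. Its DKO level was 5.49-fold the WT floor, and its ratio had a lower interval limit of 3.94. Chst15, which sulfates chondroitin 4-sulfate further, stood at 39.3 against 30.4 CPM, 1.30-fold lower (1.17 to 1.44), and Chst3, of the 6-O position, had 29 and 49 counts. When T cell receptor and CD8 genes set the scale, the log2 ratio of Chst11 was -0.99 in place of -1.07, and it no longer passed 2-fold. The CD8 T list itself was 1.06-fold lower in sum.

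Chst2 encodes a GlcNAc 6-O-sulfotransferase that makes sulfated selectin ligands. It gave 128 counts in WT against 362 in DKO (5.84 against 18.1 CPM), a level 3.10-fold higher (2.53 to 3.83). Chst7, a related gene, had 4 and 24 counts and a ratio of 6.58 with a wide interval (2.26 to 26.1). Chst1 had 20 counts in each library, and Chst4 and Chst5 had none in either, which allows up to 3 counts in each (0.137 CPM in WT and 0.150 CPM in DKO). Summed over the group, levels came to 6.93 and 20.3 CPM. The dendritic and neutrophil lists were 3.10-fold and 4.63-fold higher in sum beside it, and their part was not tested. Hs6st1, the measured gene for 6-O-sulfation of heparan sulfate, had 61.5 and 59.4 CPM, 1.04-fold lower (0.957 to 1.12), and this ratio too changed sign with the scaling by T cell receptor and CD8 genes.

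Pathway genes outside these families numbered 76, of which 72 were measured, 9 were at least 2-fold higher (12.5%, with 11.7% over all genes) and 0 lower, with a median log2 ratio of -0.01. Papss2, which makes the sulfate donor PAPS, stood at 20 against 144 counts, 7.90-fold higher (4.93 to 13.3), whereas Papss1, of the same function, had 41.8 and 41.5 CPM. Others among the higher genes at 5 CPM or more were Lgals3 (galectin-3) at 3.52-fold (3.28 to 3.79), Sulf2, which removes sulfate from heparan sulfate, at 3.14-fold (2.79 to 3.55), Cd24a at 2.39-fold and the heparan polymerase gene Ext1 at 2.16-fold. A4galt, Siglecg and Siglech were higher from at most 17 WT counts. Siglech also stands on the dendritic list. The 8 measured genes of sialic acid supply and removal had a median of -0.27, with 7 ratios below 1, and the 5 genes of fucose supply had a median of -0.25, with 4 below 1. N-glycan trimming genes had a median of -0.28, with 4 of 5 below 1. Most genes of these 3 parts lay at 20 CPM or more. Of all genes, 1711 of 2627 at 100 CPM or more had log2 ratios below 0 (median -0.09). At 20 to 100 CPM, 2571 of 4928 did (median -0.02), and no test was made of these parts.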

How the data were processed

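Each file deposited by the authors holds 1 library's raw read counts by gene symbol. TruSeq total RNA libraries were read single-end, per the labels' protocols. Per the submitters' processing notes, HTSeq, TopHat2 2.0.8b, bcl2fastq and the build mm9 were used, with no roles stated. Strand setting and annotation: not given in the sources used here. Antisense reads may therefore be included in a gene's count. The 5 rows that name no gene were left out; alignments that were not unique made up 66.4% (WT) and 64.8% (DKO) of the rows' totals, so enzymes with near-identical copies may be undercounted.

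Counts were scaled by TMM (edgeR 4.0.16, R 4.3.3; factors 0.983 and 1.02) to CPM. Folds are ratios of CPM; log2 ratios add a prior count of 0.5. Intervals are exact Clopper-Pearson 95% intervals of the DKO share of a gene's 2 counts (scipy 1.17.1). The libraries carry no stated molecular identifiers, so reads may share a molecule, and both the intervals and the floor of 3 counts reflect counting error alone. The minimum was 1 CPM in WT or DKO, and every gene above it was computed. Exon lengths come from GENCODE M21 (GRCm38, not mm9) and were found for 62 of the 64 measured genes, so levels per kilobase are approximate. The scripts were tested on simulated data.

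Named were members with at least 5 CPM and a ratio of at least 1.5-fold whose interval left out 1, and 29 members whatever their value. Pathway genes were named at 2-fold and 5 CPM, with 5 others whatever their value; some genes under these rules are not reported here. Members and lists were chosen with earlier results of these data known. Other genes (Galnt2, Galnt6, Galnt7, Galnt9, Galnt10, Mgat2, Mgat3, B3gnt1, Chst1, B4galt6, B3galt4, Fut8, Chst3, Chst7, Chst13, St6galnac2, Papss1 and genes named to complete a count) were chosen after their values were seen, as were the promoters printed. Alternatives were scaling by total counts, by DESeq2 1.42.0 size factors or by T cell receptor and CD8 genes, no minimum or 5 CPM, limits of 1.5-fold and 4-fold, and a prior count of 5.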

Additional observations from a re-analysis of the deposited data

How the results depend on the processing

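The number of higher genes was 8, and it was 10, 8 and 10 when libraries were scaled by total counts, by DESeq2 size factors and by T cell receptor and CD8 genes, with all 8 included each time; Mgat4b and B4galt6 were added under the first and the last. It was 10 with no minimum and fell to 5 with a minimum of 5 CPM, where 51 genes were tested. Limits of 1.5-fold and 4-fold gave 15 and 2 higher genes, and 3 and 0 lower genes. The number of lower genes, 1 (Chst11), was 0 when T cell receptor and CD8 genes set the scale, and 1 under the other scalings and minimums. The median log2 ratio stayed positive, from 0.03 (minimum of 5 CPM) to 0.22 (T cell receptor and CD8 genes). That scaling moved the median of all measured genes from 0.00 to 0.08, and 6 of the 64 genes changed sign under it (B3galt6, Fut11, Galnt1, Hs6st1, Mgat2 and Mgat4a); total counts changed 4 of these, B3galt6, Fut11, Mgat2 and Mgat4a, and DESeq2 size factors 0. No called gene changed sign under the 3 scalings. No paired analysis was possible because each genotype has 1 library, and for the same reason no replicate could be left out. Depth limits the genes below 1 CPM: 1 count is 0.0456 CPM in WT and 0.050 CPM in DKO.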

Other observations

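The 29 enzyme genes with no counts in either library were spread over several families, and whether a count of 0 means no expression was not tested. In the α2,8 family, St8sia2, St8sia3 and St8sia5 were at 0, and St8sia4 gave 87.0% of the family's summed level per kilobase in WT and 84.1% in DKO. Among α2,6 genes, St6gal2 and St6galnac5 were at 0, and St6gal1 gave 77.1% and 77.8% of the genes with an exon length. Fut2, Fut9 and Fut10 were at 0, and Fut8 gave 53.4% and 52.8% of the fucosyltransferase level. Hs6st3 was at 0, Hs6st2 had 0 and 3 counts, and Hs6st1 gave nearly all of its family. In the chondroitin, dermatan and other sulfotransferase group, Chst11 gave 37.7% of the level per kilobase in WT and 20.5% in DKO, and Chst12 gave 22.4% and 40.0%.

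Zeros were frequent in both libraries for all genes, with 9990 genes at 0 and 126 at 1 count in WT, and 9325 and 186 in DKO. Promoter windows of the measured enzyme genes held a median of 20 CpG dinucleotides in 300 bases, the same as the 20 of all measured genes. Windows of the enzyme genes at 0 in both libraries held a median of 15, whereas those of all genes at 0 in both held 4. This is a description of 24 windows of 18 enzyme genes, and no test was made of it.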
